A study of Mus musculus with 12 samples.

Results

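Transcripts of 4 neuropeptide precursors and 1 neuropeptide receptor were followed in mouse adrenal glands with extra copies of Ftz-F1 (Nr5a1), the gene of the nuclear receptor SF-1. The 5 genes were Gal, Npy, Cartpt, Penk (also written Penk1) and Npy2r. They were taken by symbol from the platform annotation, and each had 1 of the 25344 probes on the array. All 5 had a value on all 12 arrays, and they were 5 of the 17882 named genes, and of the 21513 features in all, that could be tested. Their choice was guided by their ratios between the transgenic and wild-type channels in these arrays, in a direction that no source used here gives. Those ratios are therefore given as a description, without a test. Tests of the members are kept for age with copy number and for sex, which the choice did not use. Relations between members across pairs were tested too.

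Each of 6 transgenic mice of 1 line was compared on 2-colour arrays with a wild-type littermate of its sex and age, and the dyes were exchanged on a second array. Each pair carries here the label number of its transgenic animal. Pairs 11, 13 (male) and 15 (female) were 10 days old and carried 1 transgene copy, written YAC(1). Pairs 1, 3 (male) and 5 (female) were 4 months old and carried 2 copies, written YAC(2), so age and copy number cannot be told apart. Arrays with transgenic RNA in Cy3 carry one description date and those with it in Cy5 another, so dye and date cannot be told apart either. The labels name neither the strain nor any pooling of glands. With whole glands, a change in the share of chromaffin cells and a change in RNA per chromaffin cell cannot be told apart. Ratios are on the log2 scale, corrected for the dye trend of their array, and keep their deposited sign. No source used here says whether a positive sign means more RNA in the transgenic or in the wild-type gland. The Nr5a1 probe itself was at -0.57, -0.65 and -0.79 in pairs 11, 13 and 15 and at -0.46, 0.11 and -0.22 in pairs 1, 3 and 5, and the sources do not say whether it detects the transgene.

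Chromaffin cells of the adrenal medulla store peptides beside adrenaline and noradrenaline in their dense-core granules and release them together. The peptides are cut from larger precursors inside the granule by prohormone convertases. Galanin, neuropeptide Y and the enkephalins act through G protein-coupled receptors, and the Y2 receptor encoded by Npy2r is known as a presynaptic autoreceptor that lowers release of neuropeptide Y. SF-1 is expressed in the steroid-producing cortex and not in mature chromaffin cells.

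Because the mice differ in SF-1 dosage, the 250 bases before the RefSeq start (GRCm38.p6) of the 4 members matched in the promoter table are shown, with any searched motif in capitals. They lie at chr19:3414545-3414794 (minus strand) for Gal, chr6:49822460-49822709 (plus strand) for Npy, chr3:82548086-82548335 (minus strand) for Npy2r and chr13:99900684-99900933 (minus strand) for Cartpt.
Gal: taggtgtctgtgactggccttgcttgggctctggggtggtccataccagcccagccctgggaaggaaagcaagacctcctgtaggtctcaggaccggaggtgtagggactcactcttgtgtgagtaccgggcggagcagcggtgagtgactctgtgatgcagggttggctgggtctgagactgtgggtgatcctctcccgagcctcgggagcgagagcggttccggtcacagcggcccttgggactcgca
Npy: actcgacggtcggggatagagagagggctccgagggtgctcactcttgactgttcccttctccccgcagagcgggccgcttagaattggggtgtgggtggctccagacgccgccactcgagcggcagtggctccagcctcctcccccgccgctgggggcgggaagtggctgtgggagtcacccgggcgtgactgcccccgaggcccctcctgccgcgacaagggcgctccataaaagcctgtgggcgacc
Npy2r: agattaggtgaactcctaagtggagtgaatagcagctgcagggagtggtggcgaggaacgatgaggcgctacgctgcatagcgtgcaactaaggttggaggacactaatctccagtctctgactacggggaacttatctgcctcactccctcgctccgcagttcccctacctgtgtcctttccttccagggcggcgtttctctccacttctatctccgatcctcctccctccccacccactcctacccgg
Cartpt: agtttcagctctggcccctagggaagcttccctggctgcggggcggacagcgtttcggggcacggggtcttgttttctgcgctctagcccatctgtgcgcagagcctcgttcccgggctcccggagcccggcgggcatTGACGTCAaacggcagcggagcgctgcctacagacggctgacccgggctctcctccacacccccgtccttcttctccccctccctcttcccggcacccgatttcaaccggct
Searched on both strands were the SF-1 site CAAGGTCA, the nuclear receptor half-site AGGTCA that it contains, the cAMP response element TGACGTCA and its half-site TGACG, which it contains on both strands. Of 32851 windows of this length, 1.33%, 14.0%, 1.55% and 17.8% held them. The Cartpt window held the full cAMP response element, starting 112 bases before the start. The other 3 windows held none of the 4 letter strings, and no window of the 4 held either nuclear receptor string. These are matches of letters in a short window and not measured binding.

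Gal, the precursor gene of galanin, had the largest mean ratio of the 5. It stood at 1.68, 1.09 and 0.76 in pairs 11, 13 and 15 and at 1.31, 1.12 and 1.25 in pairs 1, 3 and 5. All pairs were positive, and the 4-month values lay inside the wider 10-day range. The mean was 1.17 ± 0.47 (SD, n = 3) at 10 days and 1.22 ± 0.10 (SD, n = 3) at 4 months, and 1.20 ± 0.30 (SD, n = 6) over all pairs, a 2.30-fold ratio. The 12 arrays ran from 0.62 to 1.76, all on one side of 0. Where Cy3 marked the transgenic sample, the spot could be read back as a ratio of whole numbers up to a common factor, such as 2753 over 870 in pair 11, 309 over 194 in pair 15 and 6131 over 1878 in pair 3. The mean was 1.29 with the transgenic RNA in Cy3 and 1.11 with it in Cy5, a gap smaller than the SD between pairs.

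Npy, the precursor gene of neuropeptide Y, was close behind with a wider spread. Its pair values were 1.89, 1.08 and 0.72 at 10 days (pairs 11, 13 and 15) and 0.84, 0.58 and 1.63 at 4 months (pairs 1, 3 and 5). All pairs and all 12 arrays were positive, with pairs 11 and 5 the highest. The mean was 1.23 ± 0.60 (SD, n = 3) at 10 days, 1.02 ± 0.55 (SD, n = 3) at 4 months and 1.12 ± 0.52 (SD, n = 6) over all pairs, a 2.18-fold ratio. The dye orientations disagreed most in these 2 pairs. With transgenic RNA in Cy3 they read 2.61 and 2.42, against 0.81 to 1.26 in the other 4 pairs. With it in Cy5 they read 1.16 and 0.84, against 0.35 to 0.90, so that pair 5 no longer stood above the others. The 2 arrays thus differed by 1.44 in pair 11 and 1.58 in pair 5, where the median gap over all features was 0.33. Over the 6 pairs the mean of Npy was 1.51 on the Cy3 arrays and 0.74 on the Cy5 arrays, a gap larger than the spread of pairs, so the size of its ratio differed with dye and date while its sign did not. The Npy spot was among the brightest, above 99.0% of probes. On the Cy3 arrays it read back as 4525 over 588 in pair 11 and 11927 over 1859 in pair 5. In pairs 15 and 3 it read back as 35566 over 20505 and 48935 over 17276. These numbers are known only up to a common factor, so their sizes cannot be compared between arrays. The brightness rank rests largely on pairs 15 and 3.

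Npy2r, the Y2 receptor gene, was the steadiest of the 5. It stood at 0.94, 0.86 and 0.72 in pairs 11, 13 and 15 and at 0.61, 0.68 and 0.82 in pairs 1, 3 and 5. The 12 arrays ran from 0.57 to 0.95, all positive. The mean was 0.84 ± 0.11 (SD, n = 3) at 10 days, 0.70 ± 0.11 (SD, n = 3) at 4 months and 0.77 ± 0.12 (SD, n = 6) over all pairs, a 1.71-fold ratio. Only 11.2% of features with 6 pair values had a smaller SD between pairs. The whole numbers behind it, known up to a common factor, ran from 154 over 125 in pair 15 to 1679 over 1042 in pair 5.

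Cartpt, the precursor gene of the cocaine- and amphetamine-regulated transcript peptides, differed between pairs in sign. It stood at -0.05, 0.48 and 1.44 in pairs 11, 13 and 15 and at -0.55, 0.46 and 1.08 in pairs 1, 3 and 5. The mean was 0.62 ± 0.76 (SD, n = 3) at 10 days, 0.33 ± 0.83 (SD, n = 3) at 4 months and 0.47 ± 0.73 (SD, n = 6) over all pairs, so the mean over all pairs was smaller than the spread. As the mean of the age group means it was 0.27 without pair 15, 0.29 without pair 5 and 0.70 without pair 1. In each age group the female pair was the highest. On the Cy3 arrays it read back as 305 over 408 in pair 11, as 379 over 235 in pair 5 and as 101 over 44 in pair 15. Its 12 arrays ran from -0.75 to 1.71, and 9 were positive.

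Penk, the precursor gene of the enkephalins, also had the female pair highest at each age. Its pair values were -0.36, 0.32 and 1.53 at 10 days (pairs 11, 13 and 15) and -0.27, 0.01 and 0.38 at 4 months (pairs 1, 3 and 5). The mean was 0.49 ± 0.95 (SD, n = 3) at 10 days, 0.04 ± 0.32 (SD, n = 3) at 4 months and 0.27 ± 0.68 (SD, n = 6) over all pairs. Pair 15 carried most of it, and without that pair the mean of the age group means was 0.01. Both arrays of pair 15 were high, at 1.81 and 1.25. Of the 12 arrays 8 were positive. Spots read back, up to a common factor, as 287 over 120 in pair 15 and 332 over 637 in pair 1. In pairs 11 and 5 they read back as 16 over 25 and 41 over 38. The signal of Penk stood above 61.7% of probes and that of Cartpt above 63.9%, against 83.3% for Npy2r and 91.2% for Gal. SDs this wide were rare, since 97.3% of features had a smaller SD than Cartpt and 96.8% a smaller SD than Penk.

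**Figure D1:**
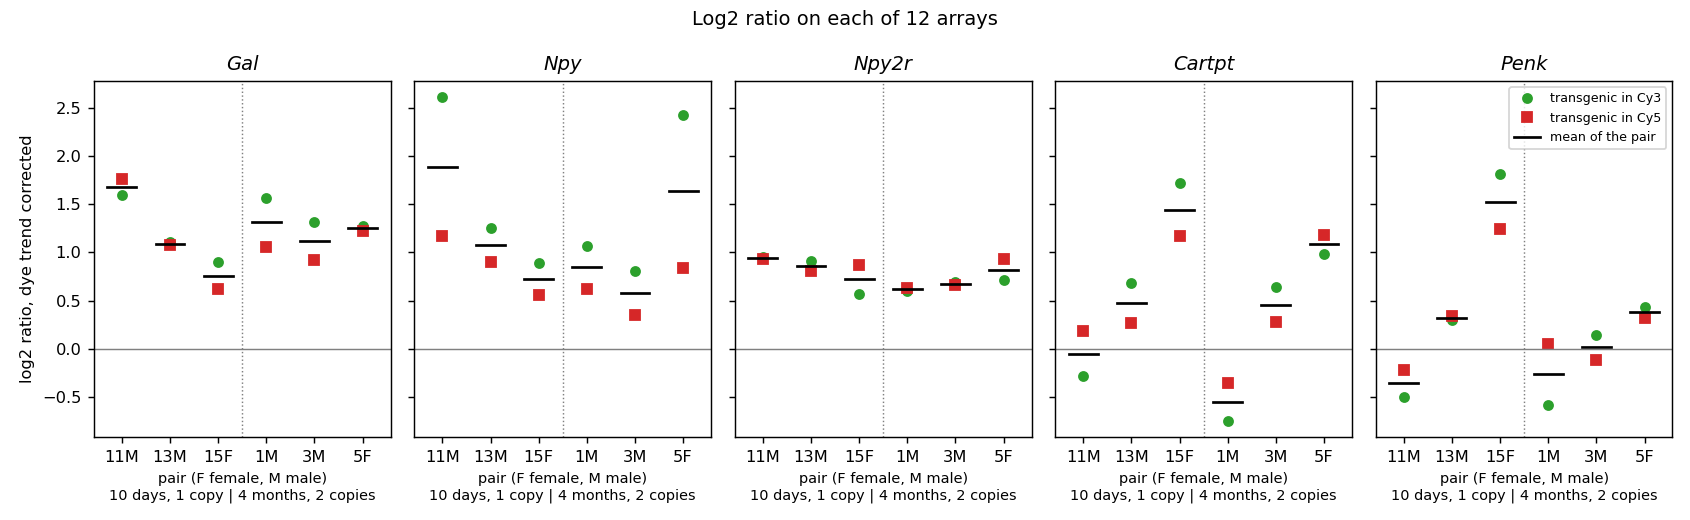
Log2 ratio after dye trend correction (vertical axis) of the 5 genes on both arrays of each pair (horizontal axis, 10 days left of the dotted line), with a bar for the mean of the pair. Gal, Npy and Npy2r lie above 0 on all 12 arrays, the Npy arrays of pairs 11 and 5 stand 1.44 and 1.58 apart, and Cartpt and Penk cross 0.

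Gal, Npy and Npy2r were thus positive in 6 of 6 pairs and on 12 of 12 arrays, and Cartpt and Penk in 4 of 6 pairs. Among all features with 6 pair values 5.67% were positive in all 6 pairs, and 1.27% were positive on all 12 arrays. Since the genes were chosen on these ratios, the counts describe them and support nothing further. In limma 0.0558% of features passed over all 6 pairs at an adjusted p of 0.05 (0.0511% positive), and 15.0% were at an unadjusted p of 0.05. At 10 days and at 4 months alone 0% passed, with 8.34% and 12.3% at an unadjusted p of 0.05. A mean above 0.5 was found for 0.995% of features and a mean above 1, as for Gal and Npy, for 0.0558%.

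No member was shown to differ between the 4-month, 2-copy glands and the 10-day, 1-copy glands, a contrast that the choice of genes did not use. The 4-month minus 10-day difference was 0.05 for Gal (95% interval -0.49 to 0.59), -0.21 for Npy (-1.03 to 0.61) and -0.14 for Npy2r (-0.46 to 0.19). It was -0.29 for Cartpt (-1.40 to 0.81) and -0.45 for Penk (-1.46 to 0.55). Adjusted p-values in limma, over all 21513 features, ran from 0.936 for Penk to 0.990 for Gal, and the groups overlapped for all 5, while 5.06% of features lay wholly higher and 5.33% wholly lower at 4 months. The interval of Npy2r leaves room for a difference of at most 0.46 in size, while those of Cartpt and Penk reach past 1. In this contrast 0% of features passed, against 4.56% at an unadjusted p of 0.05. No member was at an unadjusted p below 0.05, the lowest being 0.329 for Penk. The sign of the difference was not stable to leaving out a pair: without pair 15 it was 0.12 for Cartpt, 0.06 for Penk and -0.16 for Gal, without pair 11 0.12 for Npy, without pair 3 0.01 for Npy, and without pair 1 0.15 for Cartpt.

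**Figure D2:**
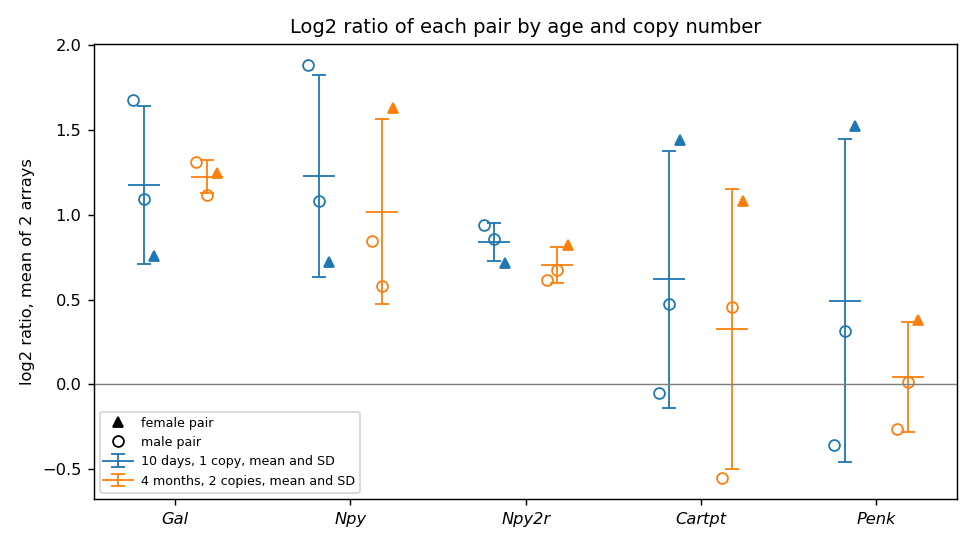
Log2 ratio of each pair (mean of 2 arrays, vertical axis) for the 5 genes, with the group mean and SD of 3 pairs at 10 days with 1 copy (blue) and at 4 months with 2 copies (orange). Triangles mark female and open circles male pairs, the groups overlap for each gene, and the female pairs are the highest of their group for Cartpt and Penk.

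Between the sexes, Cartpt and Penk had the largest differences of the 5, without passing the threshold. The female minus male difference was 1.18 (SE 0.30) for Cartpt, from means of 1.26 in 2 female and 0.08 in 4 male pairs, with a limma adjusted p of 0.797 and an unadjusted p of 0.0055. For Penk it was 1.03 (SE 0.30), from 0.95 in female and -0.07 in male pairs, with a limma adjusted p of 0.798 and an unadjusted p of 0.0102. Both female pairs lay above all 4 male pairs for both genes, as they did for 7.11% of all features with 6 pair values. In this contrast 0% of features passed, 5.76% were at an unadjusted p of 0.05, and 0.707% had a difference above 1. Within each dye orientation the difference kept its sign, at 1.28 (Cy3) and 1.08 (Cy5) for Cartpt and 1.28 and 0.77 for Penk. It stayed between 0.97 and 1.40 for Cartpt when any 1 pair was left out, while for Penk it was 0.50 without pair 15 and 1.55 without pair 5. Gal was at -0.30 (SE 0.24), Npy at 0.08 (SE 0.40) and Npy2r at -0.00 (SE 0.16), with limma adjusted p-values of 0.929, 0.988 and 0.998, and the sexes overlapped for all 3.

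Among the genes of chromaffin cells some had the same order of sexes as Cartpt and Penk and others did not. Of 15 measured chromaffin genes, 5 had both female pairs above all 4 male pairs and 0 had them below (7.13% of all features), and by their mean difference 10 were positive and 5 negative. Their median difference was 0.25, against -0.00 over all features, of which 10678 of 21504 had a positive difference. In other lists the median was 0.26 for cortical genes (7 of 10 positive), 0.38 for lymphocyte genes (6 of 7), 0.53 for macrophage genes (6 of 7) and -0.70 for hepatocyte genes (1 of 8). It was 0.00 for peptide ligands, -0.02 for peptide receptors, 0.00 for peptide processing, 0.10 for Schwann cells and -0.09 for kidney. The 5 with the order of Cartpt and Penk were Hand2, Th, Gata3, Phox2a and Chgb. The 5 with a negative difference were Cyb561 (-0.31), Slc18a1 (-0.17), Slc18a2 (-0.14), Ret (-0.12) and Syt1 (-0.07). Hand2, a transcription factor gene of sympathoadrenal cells, was at 0.74 and 1.24 in the female pairs 15 and 5 and between -0.57 and 0.09 in the male pairs, a difference of 1.23 (SE 0.16) with a limma adjusted p of 0.753. Th, which encodes tyrosine hydroxylase, the first enzyme on the way to catecholamines, was at 1.34 and 1.30 in the female pairs and between -0.01 and 0.77 in the male pairs. Gata3, another sympathoadrenal regulator, was at 1.03 and 0.91 against -0.16 to 0.60. All 6 adipocyte genes had a positive female minus male difference, with a median of 1.03 that came with list medians of 1.89 in pair 15 and 0.29 in pair 5. Adipoq, the adiponectin gene, was at 5.13 in pair 15. The part of these cells in the Cartpt and Penk difference was not tested.

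**Figure D3:**
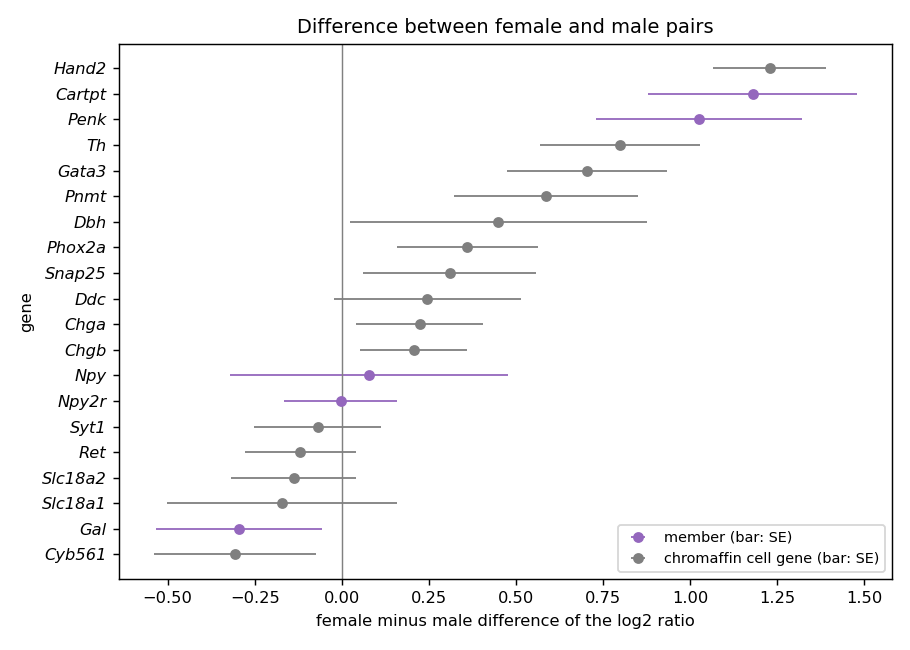
Female minus male difference of the log2 ratio (horizontal axis, bars are SE) for the 5 members (purple) and the 15 chromaffin cell genes (grey), ordered by size. Hand2, Cartpt, Penk, Th and Gata3 stand at the top, Npy and Npy2r lie at 0.08 and -0.00, and no gene passed the adjusted threshold.

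No relation between members across the 6 pairs passed after adjustment. Over these pairs, which mix both sexes and both ages, the 10 relations between members were computed, with exact two-sided permutation tests. Cartpt and Penk ran together with Pearson r = 0.87 (exact p = 0.0181, adjusted 0.162) and Spearman rho = 0.94 (exact p = 0.0167, adjusted 0.167). The value was 0.88 without the 2 pairs farthest from the median of Cartpt, 0.94 on the Cy3 arrays alone and 0.69 on the Cy5 arrays alone. Gal and Npy gave r = 0.74 (exact p = 0.0833, adjusted 0.208) and rho = 0.60 (exact p = 0.242, adjusted 0.483). Their r was 0.45 on the Cy3 arrays alone and 0.83 on the Cy5 arrays alone. It was 0.29 without the 2 pairs farthest from the median of Gal, so its size depended on those pairs. Leaving them out narrows the range of Gal, which by itself can lower r. Npy and Npy2r gave r = 0.83 (exact p = 0.0486, adjusted 0.162) and rho = 0.77 (exact p = 0.103, adjusted 0.257), with 0.67 without the 2 farthest pairs. Gal and Penk ran in opposite order, with r = -0.86 (exact p = 0.0347, adjusted 0.162) and rho = -0.83 (exact p = 0.0583, adjusted 0.257), with -0.46 without the 2 farthest pairs.

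**Figure D4:**
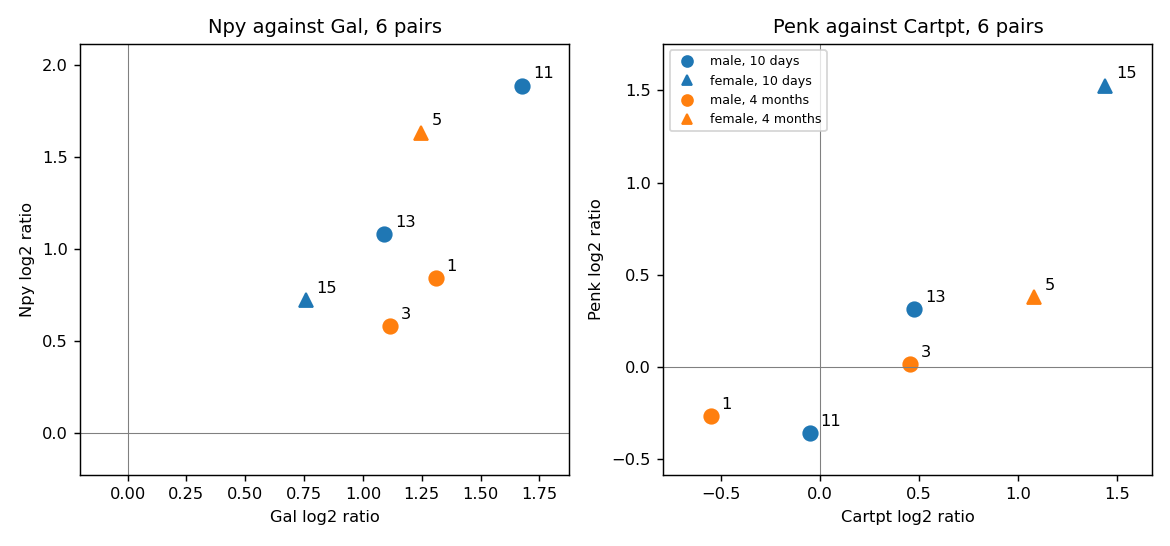
Log2 ratio of Npy against Gal (left) and of Penk against Cartpt (right), a point for each pair labelled with its number, triangles for female pairs and colour for age. Gal and Npy are highest in pair 11, while Cartpt and Penk are highest in the female pair 15 and low in the male pairs 11 and 1.

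The named genes whose 6 pair values lay nearest to each member were found by the root mean square difference over 17048 named genes. Npy was the nearest gene to Gal and Gal the nearest to Npy, at 0.34, followed for both by the mitochondrial gene Chchd10, at 0.40 from Gal and 0.41 from Npy. The third were Samt3 for Gal (0.40) and Slurp2 for Npy (0.43). Nearest to Npy2r were Srl, the sarcalumenin gene (0.12), Samt3 (0.17) and Nap1l5 (0.17). Cartpt was nearest to Ndufb2, a gene of respiratory complex I (0.25), to the sympathoadrenal gene Gata3 (0.36) and to Rnaset2b (0.36). Penk was nearest to Rabac1 (0.22), to Cpt1b, a carnitine palmitoyltransferase gene (0.22), and to Tia1 (0.25). The distance counts the level of the ratios, on which the members were chosen, as well as their order over pairs. A mean above 1, as for Gal and Npy, was found for 0.0558% of features, so few genes could lie near them. The distance is a description over 6 pairs and was not tested.

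The other peptide ligand genes lay on both sides of 0. By their mean 14 of the 29 that were measured were positive and 15 negative, and the median was -0.02 against -0.01 over all features, and 0 passed in limma in any of the 5 contrasts. Vip, the precursor gene of vasoactive intestinal peptide, lay on the negative side in 6 of 6 pairs, from -0.76 to -0.44, as did 4.75% of features, and averaged -0.57 ± 0.12 (SD, n = 6) with a limma adjusted p of 0.0634. Nts, the neurotensin precursor gene, was positive in 6 of 6 pairs, from 0.29 to 0.89, with a mean of 0.56 ± 0.22 (SD, n = 6) and a limma adjusted p of 0.0875. Scg2, whose product yields secretoneurin, was lowest in pair 11, at -1.22, and highest in pair 3, at 1.38, and averaged 0.31. Among the family relatives of the members, Galp was at -0.04, Pyy at -0.28, Pdyn at 0.05 and Pomc at -0.05.

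The ratios of receptor genes other than Npy2r stayed close to 0, on spots of lower signal than that of Npy2r. Of the 10 measured receptors for galanin, neuropeptide Y and opioid peptides 8 were positive and 2 negative by their mean. Among all features 47.1% were positive. The receptors ran from -0.08 to 0.19 with a median of 0.06, and 0 passed in limma in any contrast. Npy5r, the Y5 receptor gene, was the largest at 0.19 ± 0.08 (SD, n = 6), followed by Npy6r at 0.16 and Oprk1, the kappa opioid receptor gene, at 0.14. Npy1r, the Y1 receptor gene, was at -0.08 ± 0.19 (SD, n = 6). Npy2r, at 0.77, stood above all 10, as its choice would have it. The signal of the 10 receptors stood above 14.3% (Npy4r) to 69.2% (Galr2) of probes, against 83.3% for Npy2r. Whether the weaker spots detected their transcripts was not tested, so a ratio near 0 there need not mean an unchanged transcript.

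The genes that cut and protect peptide precursors held the calls of these lists. Of 14 measured genes 7 were positive and 7 negative, with a median of 0.00. Over all 6 pairs 2 positive genes passed in limma, against 0.0558% of all features. The list was chosen with earlier results of these data known, so these counts describe it and support nothing further. Scg5, the gene of the chaperone 7B2 of prohormone convertase 2, ran from 0.59 to 1.01 with a mean of 0.79 (SE 0.08, adjusted p = 0.0358). Pcsk1, the prohormone convertase 1 gene, ran from 0.40 to 1.01 with a mean of 0.67 (SE 0.08, adjusted p = 0.0488). Pcsk1n, the gene of the convertase inhibitor proSAAS, was positive in 6 of 6 pairs at 0.66 ± 0.44 (SD, n = 6). Its 2 female pairs, at 1.16 and 1.06, lay above the 4 male pairs, as in 7.11% of features with 6 pair values. Its female minus male difference had a limma adjusted p of 0.797. In this list 2 genes had both female pairs above all male pairs and 2 had them below. Cpe, the carboxypeptidase E gene, was at -0.00 ± 0.67 (SD, n = 6). No feature passed over all 6 pairs when pair 13, 15, 1 or 3 was left out, and 4 passed without pair 11, so both calls depend on each of these 4 pairs. Both calls also ended with each array centred on its median or with sex added as a term, where 0 features passed over all 6 pairs, and an ordinary linear model called 1 feature.

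Most chromaffin markers had positive mean ratios, and markers of some other cells stood far from 0 in single pairs or at 1 age. Of 15 chromaffin genes 12 were positive and 3 negative by their mean, where 47.1% of all features were positive. This list too was chosen with earlier results of these data known. The median of the chromaffin genes was 0.23 and 0 passed in limma in any contrast. Pnmt, whose enzyme turns noradrenaline into adrenaline, stood at 1.15 ± 0.44 (SD, n = 6), Cyb561, a granule membrane protein gene, at 0.83 ± 0.30 (SD, n = 6) and Th at 0.79 ± 0.50 (SD, n = 6). The list medians were 0.08, 0.13 and 0.57 in pairs 11, 13 and 15 and 0.09, 0.45 and 0.32 in pairs 1, 3 and 5, an order unlike that of Gal and Npy, which were highest in pair 11. Hepatocyte genes had a median of 1.77 in pair 11, where Alb, the albumin gene, was at 6.73, and between -0.00 and 0.22 in the other pairs. Lymphocyte genes had a median of -1.98 in pair 3, where Cd79b was at -5.18. Macrophage genes, with 0 of 7 positive by their mean, had medians of -0.27, -1.67 and -0.88 in pairs 1, 3 and 5, and of -1.24 over the 4-month means against 0.06 over the 10-day means. Aif1 was at -0.77, -2.84 and -1.90 in those 3 pairs, and 0 of the 7 genes passed between the ages in limma. The part of these cells in the members' ratios was not tested. Without pair 11 Gal was at 1.07 and Npy at 0.96 as the mean of the age group means, and without pair 3 they were at 1.23 and 1.23. The remaining lists had medians of -0.04 for cortical steroidogenic cells, 0.27 for adipocytes, -0.59 for macrophages, -0.07 for Schwann cells and 0.14 for kidney, and none of their genes passed. The largest cortical value was that of Cyp21a1, the 21-hydroxylase gene, at -3.96 in pair 13 and 1.64 in pair 3, with a mean of -0.99. After it came Nr0b1, the DAX-1 gene, at -0.40 and Fdx1, the ferredoxin gene of steroid synthesis, at 0.38. The largest means of the other lists were those of Ahsg (1.47), Alb (1.44) and Ttr (0.58) for hepatocytes, and of Fabp4 (0.67), Cidec (0.53) and Adipoq (0.47) for adipocytes. For immune cells they were those of H2-Ab1 (-1.04), Cd79a (-0.78) and Cd79b (-0.55) among lymphocyte genes and of Aif1 (-0.95), Marco (-0.90) and C1qb (-0.64) among macrophage genes. The means of Marco and Cd79a came from pair 3. Marco was at -6.25 there and between -0.23 and 1.15 in the other pairs. Cd79a, with a signal above only 2.97% of probes, was at -4.18 there and between -0.29 and 0.07 in the others. For Schwann cells and kidney the largest means were those of S100b (0.27), Sox10 (-0.14) and Mbp (-0.07), and Slc34a1 (0.20), Miox (0.16) and Kap (0.14).

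**Figure D5:**
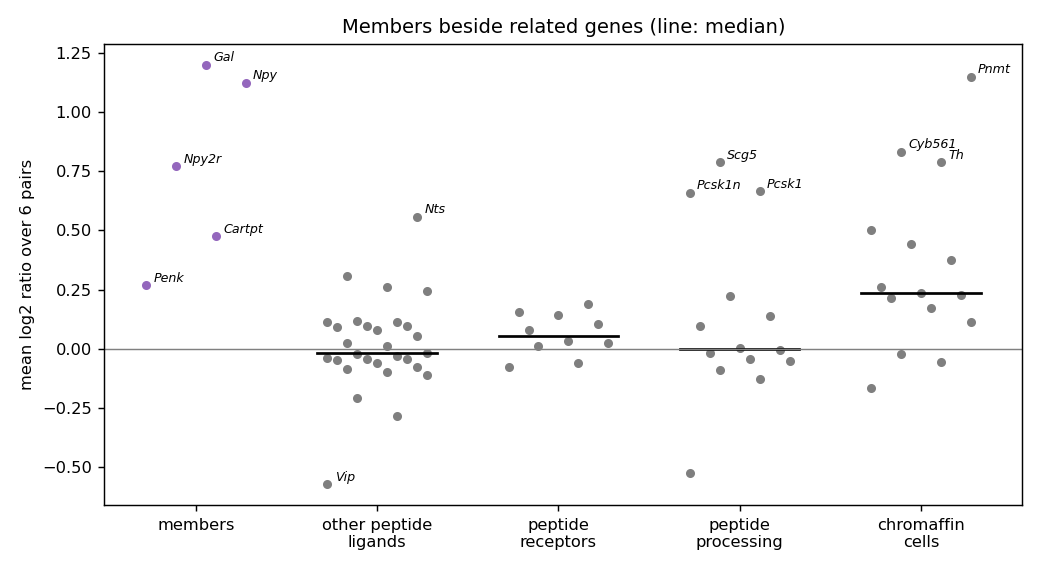
Mean log2 ratio over 6 pairs (vertical axis) of the 5 members and of each measured gene of 4 lists, with a line at the list median. Vip stands lowest at -0.57, Pcsk1, Pcsk1n and Scg5 lie between 0.66 and 0.79 in the processing list, and the 10 receptors lie between -0.08 and 0.19.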

How the data were processed

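Adrenal RNA of 6 transgenic and wild-type mouse pairs was measured on 12 2-colour arrays. The authors deposited log2 ratios; scanner, background subtraction and normalization: not given in the sources used here. Array medians as deposited ran from -0.68 to 1.50, and a loess curve on probe signal (span 0.3) was subtracted per array. That signal is the 75th percentile over the 6 arrays stored at full precision of the geometric mean of both whole numbers behind each ratio (2 to the power of the value, up to 65535, relative tolerance 1e-13, 100% of spots). The whole numbers are in lowest terms, so the signal of a spot can be read too low. In the deposited ratios, Cy3 and Cy5 arrays correlated negatively, at -0.50 to -0.10 within a pair and -0.62 to -0.24 between different pairs. After each feature's mean within its dye orientation was subtracted, the values were 0.24 to 0.67 within a pair and -0.27 to 0.12 between pairs. On that basis columns were not turned.

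Probes of a gene, then the 2 arrays of a pair, were averaged. Features with at least 2 of 3 pairs per group were fitted in limma 3.58.1 (R 4.3.3), two-sided, with Benjamini-Hochberg adjustment over all features, and sex was added for the sex contrast. All pairs come from 1 line, and whether pairs share a litter is not stated, so p-values measure the spread between these pairs. The procedure was also run on simulated data that had no noise between the 2 arrays of a pair, unlike these arrays. Its outcome is not used here as support. Precision is limited by the number of pairs. Of 25344 probes 21082 had 1 gene, 30 several and 4232 none. Members, gene lists and alternatives were chosen with earlier results of these data known. Named are the members, the 3 genes of largest mean and any called gene of each list, and the 3 genes nearest to each member. Genes outside this rule (Phox2a, Chgb, Galp, Pyy, Pdyn, Pomc, Npy1r, Cpe, Slc18a1, Slc18a2, Ret, Syt1, Gata3 and Hand2 beside Cartpt and Penk) were named after their values were seen. Promoter windows come from RefSeq (GRCm38.p6), with 4 of 5 members matched.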

Additional observations from a re-analysis of the deposited data

How the results depend on the processing

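Over all 6 pairs the ratios of all 5 members kept their sign with median centring, a loess span of 0.6 and either dye alone. There they moved by less than the SD between pairs. Probes kept apart and the 12 arrays as units could not move them, since each member had 1 probe and a value on all 12 arrays. The ratios also kept their sign when any 1 pair was removed. Such a removal cannot move the mean by as much as that SD, and Penk fell from 0.27 to 0.01 without pair 15. The number of features called over all 6 pairs was 12. It was 0 with median centring or with a sex term, 1 in an ordinary linear model, 54 with probes kept apart, 777 with the 12 arrays as units and the pair as a random block, and 0 to 15 when 1 pair was left out. Calls at 10 days numbered 75 and at 4 months 289 with the arrays as units, and 0 to 1 and 0 to 5 with 1 pair left out. Between the sexes 1 feature passed in the ordinary model, 21 with the arrays as units and 0 to 3 with 1 pair left out. With arrays as units, added for members after their values were seen, Cartpt had an adjusted p of 0.130 and Penk of 0.187 between the sexes. No member passed between the groups or sexes in these fits, while the ordinary model, the robust fit, the sex term and the filters were run for counts of features, not for members' values. Small differences changed sign. Leaving out 1 pair moved the 4-month minus 10-day difference from -0.16 to 0.30 for Gal, -0.52 to 0.12 for Npy, -0.67 to 0.15 for Cartpt and -0.88 to 0.064 for Penk. It moved the sex difference from -0.63 to 0.035 for Gal, -0.76 to 0.92 for Npy and -0.18 to 0.17 for Npy2r. On the Cy5 arrays alone the group difference was -0.083 for Gal, and the sex differences were -0.061 for Npy and 0.14 for Npy2r. For Npy2r the sex difference was 0.11 with median centring and 0.0097 with a span of 0.6. The causes were not tested. No paired analysis was possible between the age groups because they share no mouse numbers, and each ratio already pairs a transgenic with a wild-type mouse.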
